A study of Mus musculus with 14 samples.

Results

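Genes of cellular metal handling were followed through the culture of mouse hepatic stellate cells (HSCs): the metallothioneins Mt1 and Mt2, the STEAP reductases Steap1, Steap2, Steap3 and Steap4, the transferrin receptor Tfrc, the metal importers Slc39a14 and Slc11a2, and the iron exporter Slc40a1. These 10 genes, of 19938 with a probe set of their own, were taken by symbol. For each the probe set with the highest mean over the 14 arrays was used. The genes were chosen with earlier results of these data known. HSCs are the vitamin A-storing pericytes of the liver, which turn into myofibroblast-like cells on injury or on plastic. They were isolated from BalbC mice (Balb/cByJ in the methods) by Nycodenz gradient, seeded in DMEM with 10% FBS and washed after 2 h, which is time 0. Valproic acid (VPA), an inhibitor of histone deacetylases, was given from time 0 at 2.5 mM to the VPA groups and not to the control groups. Ctrl4h, Ctrl64h, VPA4h and VPA64h have 3 arrays each and Ctrl16h has 2, with no VPA group at 16 h. All 5 groups share the strain, the medium and the washing, and there is no sample of freshly isolated cells.

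Iron circulates bound to transferrin and enters cells through the transferrin receptor. In the endosome it is reduced by a STEAP protein and passes into the cytosol through a divalent metal transporter, where it is used, stored in ferritin or exported through ferroportin. Metallothioneins are small cysteine-rich proteins that bind zinc and copper, and their genes respond to metals, glucocorticoids and oxidative stress.

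Values are log2 expression after RMA, so a difference of 1 is a 2-fold difference, and they are given as mean ± SD. A gene is called, and is said to rise or fall, at an adjusted p under 0.05 in limma together with a fold change of at least 2. The list of 15 HSC markers averaged 8.64 to 9.08 over the arrays, with 12 to 14 markers above the median of all tested probe sets, which lay between 6.34 and 6.41 on every array. The list of 15 Kupffer cell and macrophage markers averaged 5.59 to 6.17, with 3 or 4 above that median, and 9 lymphocyte markers averaged 4.87 to 5.67. Markers of 2 further cell types were partly above it, up to 6 of 12 for sinusoidal endothelial cells (mean 6.28 to 7.06, Plvap 9.73 to 12.17) and up to 6 of 15 for hepatocytes (mean 5.33 to 6.26, Alb 6.43 to 9.19). Plvap and Alb were each the brightest gene of their list. Esam came next for endothelial cells, with group means of 7.34 to 9.19. Those of Stab2 (5.72 to 6.30) and Pecam1 (5.62 to 6.21) lay below that median. Means of different lists come from different probes and are not set against each other. These are RNA levels of whole cultures, in which fewer cells of a type and less RNA per cell cannot be told apart.

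The promoters of Mt1 and Mt2 are shown because their genes lie side by side and are known targets of metal response elements. At 16 h against 4 h only Mt2 of the pair was called. The letters are from RefSeq on GRCm38.p6, 250 bases upstream of each start, at chr8:94178839-94179088 for Mt1 and chr8:94172368-94172617 for Mt2, both on the plus strand. Capitals mark the core of the metal response element, read as TGCACNC or TGCGCNC on either strand.
Mt1: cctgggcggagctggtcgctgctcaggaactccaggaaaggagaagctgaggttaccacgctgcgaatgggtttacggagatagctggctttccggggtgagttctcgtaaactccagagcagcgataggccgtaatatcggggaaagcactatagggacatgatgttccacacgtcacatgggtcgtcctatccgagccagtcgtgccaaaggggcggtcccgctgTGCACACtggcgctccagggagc
Mt2: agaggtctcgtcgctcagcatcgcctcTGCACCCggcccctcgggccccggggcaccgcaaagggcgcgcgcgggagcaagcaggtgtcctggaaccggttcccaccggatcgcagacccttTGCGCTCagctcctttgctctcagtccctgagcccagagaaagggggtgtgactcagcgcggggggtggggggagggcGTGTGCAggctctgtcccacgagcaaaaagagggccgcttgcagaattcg
The 300-base window, which adds 50 bases after the start, held 3 such cores for Mt1 and 4 for Mt2. Of these 2 for Mt1 and 1 for Mt2 lay in the added bases, which are not printed. Of 32851 mouse promoter windows of this length 25.7% held at least 1 core, 1.97% at least 3 and 0.517% at least 4. A match of letters is not a bound site, and a link of these cores to the changes of either gene was not tested.

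Both metallothioneins fell during culture and were higher with VPA at 64 h, by less than 2-fold. Mt1 was at 10.60, 10.65 and 10.81 in Ctrl4h, at 10.40 and 10.39 in Ctrl16h and at 9.70, 9.49 and 9.68 in Ctrl64h. No Ctrl64h array reached any array of the earlier control groups. Mt1 fell by 1.06 between 4 h and 64 h on the log2 scale (SE 0.12, 2.09-fold, adjusted p = 2.53e-06), although without Ctrl64h replicate 2 it was just under 2-fold lower (-0.998). The part of this difference between 4 h and 16 h was -0.30 (adjusted p = 0.17), and that between 16 h and 64 h was -0.77 (adjusted p = 0.000355, 1.71-fold). The first part rests on the scaling, since centred on housekeeping genes it was -0.70 (adjusted p = 0.000873).

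Mt2 changed earlier. It was at 10.56, 10.81 and 10.88 in Ctrl4h, at 9.32 and 9.40 in Ctrl16h and at 8.97, 9.08 and 9.28 in Ctrl64h. Both later groups lay below all Ctrl4h arrays. Mt2 fell by 1.39 between 4 h and 16 h (SE 0.19, 2.61-fold, adjusted p = 8.29e-05) and by 1.64 between 4 h and 64 h (SE 0.17, 3.11-fold, adjusted p = 7.61e-07). Between 16 h and 64 h the difference was -0.25 (adjusted p = 0.311). The courses of Mt1 and Mt2 were not tested against each other. The coding regions of these paralogs are alike, and binding of one transcript to the probes of the other was not tested.

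With VPA the metallothioneins stayed near the control at 4 h. Mt1 was at 10.52, 10.89 and 10.91 in VPA4h and at 10.17, 10.03 and 10.50 in VPA64h. The VPA4h arrays overlapped Ctrl4h, while every VPA64h array was above every Ctrl64h array. Mt1 was higher in VPA64h than in Ctrl64h by 0.61 (SE 0.12, 1.53-fold, adjusted p = 0.00193), against 0.08 at 4 h (adjusted p = 0.751). Mt2 was at 10.27, 10.54 and 10.75 in VPA4h and at 9.64, 9.78 and 10.44 in VPA64h. Again the 4 h groups overlapped and the 64 h groups did not, with VPA64h replicate 3 well above the others of its group. Mt2 was higher in VPA64h by 0.84 (SE 0.17, 1.79-fold, adjusted p = 0.00191) and differed by -0.23 at 4 h (adjusted p = 0.452).

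The VPA effect on Mt2 was larger at 64 h than at 4 h by 1.07 (SE 0.24, adjusted p = 0.00634), the only difference of effects among the 10 genes that was called. It stayed below 2-fold without VPA64h replicate 3 (0.83, adjusted p = 0.00832), without VPA4h replicate 1 (0.94, adjusted p = 0.0204) or without Ctrl64h replicate 1 (0.998, adjusted p = 0.0173). For Mt1 the same difference was 0.53 (adjusted p = 0.0555, and 0.0293 with the replicate number as a block).

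**Figure D1:**
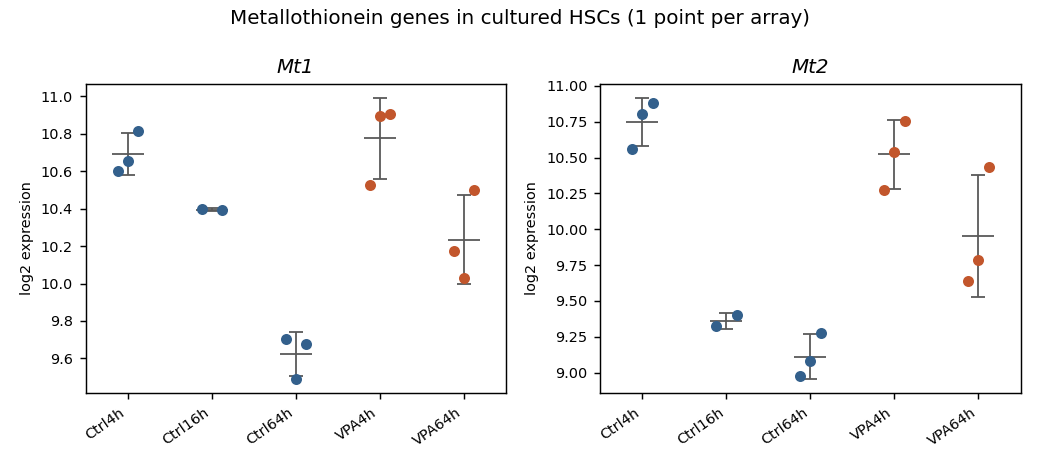
Log2 expression (y axis) of Mt1 and Mt2 in the 5 groups (x axis), control in blue and VPA in orange, with 1 point per array and bars for mean ± SD. Both genes are lowest in Ctrl64h, Mt2 is already low in Ctrl16h, and all VPA64h arrays lie above the Ctrl64h arrays.

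Of the regulators and partners of the metallothioneins, Mtf1, the transcription factor that senses zinc, was at -0.49 in Ctrl64h against Ctrl4h (adjusted p = 0.00273) and did not differ detectably with VPA at 64 h (0.00, 95% interval -0.25 to 0.26). Slc30a1, the zinc exporter of the plasma membrane, was at 7.57 ± 0.09 in Ctrl4h and 8.30 ± 0.12 in VPA4h (SD, n = 3). All VPA4h arrays were above all Ctrl4h arrays. The difference of 0.73 (adjusted p = 7.2e-06, 1.66-fold) was followed by one of 0.24 at 64 h (adjusted p = 0.0439), a decline of the VPA effect by -0.49 (adjusted p = 0.00755). The VPA effects on Slc30a1 and on Mt2 differed between the times in opposite directions. Of the 26 measured zinc transporters and metal sensors, limma called 0 in each of the 7 contrasts, while 10.4% of all tested probe sets were called between 4 h and 64 h. An adjusted p under 0.05 was reached over this span by 7 that were higher and 8 that were lower, near the share of all tested probe sets (56.7%).

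The STEAP family split into genes that rose, a gene that fell and a gene without a called change. STEAP proteins are haem-containing membrane reductases of ferric iron and cupric copper. Steap1 is the member that lacks the NADPH-binding domain of the others. Steap1 and Steap2 rose early in culture, Steap4 fell, and Steap3 was not called, and none of the 4 was called for VPA at either time.

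Steap2 had the largest rise. It was at 8.07, 7.52 and 7.44 in Ctrl4h, at 9.17 and 9.30 in Ctrl16h and at 9.83, 9.62 and 9.75 in Ctrl64h. The 3 control groups did not overlap and were ordered by time. Steap2 rose by 1.56 between 4 h and 16 h (SE 0.16, 2.95-fold, adjusted p = 4.06e-06) and by 2.06 between 4 h and 64 h (SE 0.14, 4.17-fold, adjusted p = 5.65e-09). The later step, from 16 h to 64 h, was 0.50 (adjusted p = 0.0172) and was 0.36 (adjusted p = 0.0626) when the arrays were quantile normalised again.

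Steap2 is read by 2 single-gene probe sets. The second was dim, with group means of 4.87 to 5.16, and did not follow the first, so that with the mean of both the differences were 0.80 at 16 h and 0.90 at 64 h against 4 h, below the 2-fold limit. Which probes of the gene each set holds is not analysed here.

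Steap1, the neighbour of Steap2 on chromosome 5, followed the same course. It was at 6.91, 6.48 and 6.31 in Ctrl4h, at 7.55 and 8.03 in Ctrl16h and at 8.42, 8.04 and 8.40 in Ctrl64h. Neither later group overlapped Ctrl4h. Steap1 rose by 1.22 between 4 h and 16 h (SE 0.18, 2.33-fold, adjusted p = 0.000118) and by 1.72 between 4 h and 64 h (SE 0.16, 3.29-fold, adjusted p = 1.67e-07). Only the 16 h call rested on a single array, since without Ctrl16h replicate 2 the change was 0.99 (adjusted p = 0.00527). Over the 14 arrays, values of Steap1 and Steap2 centred on their own means differed by 0.22 log2 units (root mean square), the smallest such difference of the 45 pairs among the 10 genes.

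In the VPA groups the rise of both genes was present too. Steap2 was at 7.25, 7.10 and 7.09 in VPA4h and at 9.50, 9.61 and 9.86 in VPA64h, a rise of 2.51 (SE 0.14, adjusted p = 1.05e-09). Steap1 was at 6.31, 6.16 and 6.07 in VPA4h and at 8.31, 8.64 and 8.45 in VPA64h, a rise of 2.29 (SE 0.16, adjusted p = 1.01e-08). At 64 h the VPA arrays overlapped the control arrays for both genes and at 4 h all of them were below, with the nearest Steap1 arrays both at 6.31 after rounding. The VPA effect at 4 h was -0.53 for Steap2 (adjusted p = 0.0113, and -0.33 with adjusted p = 0.0523 without Ctrl4h replicate 1) and -0.39 for Steap1 (adjusted p = 0.101). At 64 h it was -0.08 for Steap2 (95% interval -0.38 to 0.22) and 0.18 for Steap1 (95% interval -0.15 to 0.52).

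Steap4, a ferric and cupric reductase that is induced by inflammatory signals in other cells, had the widest range of the 10 genes, 2.79 log2 units between its highest and lowest group mean. It was at 12.13, 12.42 and 12.36 in Ctrl4h, at 9.64 and 9.53 in Ctrl16h and at 10.40, 10.84 and 10.34 in Ctrl64h. Ctrl16h was the lowest group and overlapped no other. Steap4 fell by 2.72 between 4 h and 16 h (SE 0.16, 6.57-fold, adjusted p = 3.61e-08) and was then higher by 0.94 at 64 h than at 16 h (SE 0.16, 1.92-fold, adjusted p = 2e-04). That later difference reached 2-fold without Ctrl64h replicate 1 (1.00) or replicate 3 (1.03). From 4 h to 64 h the gene fell by 1.78 (SE 0.14, 3.43-fold, adjusted p = 3.77e-08).

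VPA left Steap4 near its controls. It was at 12.24, 12.41 and 12.49 in VPA4h and at 10.32, 10.67 and 10.16 in VPA64h, overlapping the control group of the same time in both cases. The VPA effect was 0.08 at 4 h (95% interval -0.23 to 0.38) and -0.14 at 64 h (95% interval -0.44 to 0.16), so that a 2-fold effect lies outside both intervals. Within the VPA groups Steap4 fell by 2.00 (SE 0.14, adjusted p = 1.53e-08).

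Steap3, the endosomal ferrireductase of erythroid cells, ranged over 0.32 log2 units between group means. It was at 6.77, 6.79 and 6.95 in Ctrl4h, at 7.03 and 7.06 in Ctrl16h, at 6.74, 6.81 and 6.94 in Ctrl64h, at 7.04, 6.99 and 6.87 in VPA4h and at 6.57, 6.70 and 6.92 in VPA64h. Groups next to each other in level overlapped throughout. The 95% interval of the change between 4 h and 64 h in control cells was -0.22 to 0.19, but centred on housekeeping genes that change was -0.43 (adjusted p = 0.00148). From VPA4h to VPA64h Steap3 differed by -0.24 (adjusted p = 0.0497, and 1.54e-05 to 0.214 over the alternatives). Of 7 erythroid markers 0 were called in any of the 7 contrasts, and their mean was 5.37 to 5.73 on the arrays. One of them, the erythropoietin receptor Epor, was higher with VPA by 0.91 at 4 h (adjusted p = 2.7e-06) and by 0.99 at 64 h (1.99-fold, adjusted p = 1.29e-06).

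**Figure D2:**
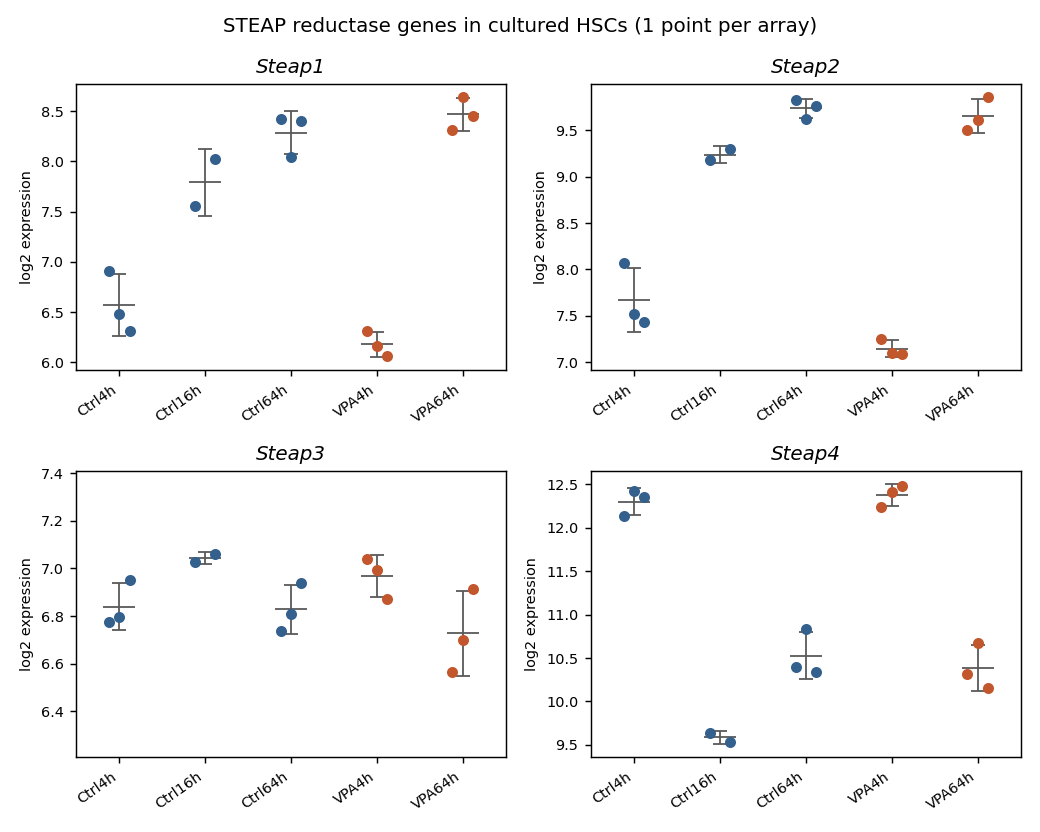
Log2 expression (y axis, scaled per gene) of Steap1, Steap2, Steap3 and Steap4 in the 5 groups (x axis), control in blue and VPA in orange, with 1 point per array and bars for mean ± SD. Steap1 and Steap2 are low in both 4 h groups and high at 64 h, Steap4 is highest at 4 h and lowest in Ctrl16h, and Steap3 stays between 6.57 and 7.06.

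The import genes fell or were lower late in culture. Tfrc, which carries transferrin-bound iron into the cell and whose mRNA is stabilised by iron regulatory proteins when iron is scarce, was at 10.33, 10.13 and 10.03 in Ctrl4h, at 10.53 and 10.56 in Ctrl16h and at 9.09, 8.97 and 9.12 in Ctrl64h. Ctrl64h was below every other array of the study. Tfrc fell by 1.48 between 16 h and 64 h (SE 0.10, 2.79-fold, adjusted p = 2.32e-08) and by 1.10 between 4 h and 64 h (SE 0.09, 2.15-fold, adjusted p = 5.17e-08). It was higher at 16 h than at 4 h by 0.38 (adjusted p = 0.0139), a difference that did not pass at 0.05 without Ctrl16h replicate 1 (0.0776), Ctrl16h replicate 2 (0.0891) or Ctrl4h replicate 3 (0.0608).

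VPA was accompanied by lower Tfrc at 4 h and higher Tfrc at 64 h. The gene was at 9.76, 9.65 and 9.65 in VPA4h and at 9.63, 9.43 and 9.59 in VPA64h. All VPA4h arrays were below Ctrl4h and all VPA64h arrays were above Ctrl64h. The VPA effect was -0.48 at 4 h (SE 0.09, 1.39-fold, adjusted p = 0.000979) and 0.49 at 64 h (SE 0.09, 1.40-fold, adjusted p = 0.000949). These effects differed by 0.97 (SE 0.13, 1.95-fold, adjusted p = 9.98e-05). Between VPA4h and VPA64h Tfrc differed by -0.14 (95% interval -0.33 to 0.06), where the control cells fell. This rests on the scaling, since centred on housekeeping genes Tfrc differed by -0.61 (adjusted p = 3.01e-05) between the VPA groups.

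Slc39a14 (ZIP14), an importer of zinc and of iron not bound to transferrin, was at 8.48, 8.14 and 8.24 in Ctrl4h, at 8.10 and 8.16 in Ctrl16h and at 7.50, 7.33 and 7.30 in Ctrl64h. The late group was below both earlier control groups. Slc39a14 was lower at 64 h than at 4 h by 0.91 (SE 0.10, 1.88-fold, adjusted p = 9.37e-07), short of the 2-fold limit, and most of the difference lay after 16 h (-0.75, adjusted p = 4.33e-05). With VPA it was at 8.07, 7.87 and 7.96 at 4 h and at 7.54, 7.44 and 7.56 at 64 h. At 4 h all VPA arrays were below the control, with a VPA effect of -0.32 (adjusted p = 0.0254), and at 64 h the groups overlapped (0.13, adjusted p = 0.372). The effects differed by 0.45 (adjusted p = 0.0342, and over all alternatives 0.0146 to 0.129).

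Slc11a2 (DMT1), which moves ferrous iron out of the endosome, had VPA effects of nearly equal size at both times. It was at 9.44, 9.45 and 9.11 in Ctrl4h, at 9.29 and 9.16 in Ctrl16h, at 9.09, 8.88 and 8.95 in Ctrl64h, at 9.92, 9.81 and 9.72 in VPA4h and at 9.48, 9.31 and 9.51 in VPA64h. The VPA arrays were above the control arrays of the same time without overlap. The VPA effect was 0.49 at 4 h (SE 0.11, 1.40-fold, adjusted p = 0.00254) and 0.46 at 64 h (SE 0.11, 1.37-fold, adjusted p = 0.00442), with a difference between the times of -0.03 (95% interval -0.35 to 0.29). In control cells it was lower at 64 h than at 4 h by 0.36 (adjusted p = 0.00857, 1.28-fold).

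Slc40a1 (ferroportin), the iron exporter that hepcidin controls, was lower in the later control groups than in Ctrl4h. It was at 9.52, 10.27 and 10.09 in Ctrl4h, at 9.21 and 8.84 in Ctrl16h and at 8.98, 9.24 and 9.02 in Ctrl64h. The later control groups lay below Ctrl4h, whose replicate 1 was the lowest of its group. The difference was -0.93 at 16 h (SE 0.21, 1.91-fold, adjusted p = 0.00362) and -0.88 at 64 h (SE 0.18, 1.84-fold, adjusted p = 0.000739). It exceeded 2-fold without Ctrl4h replicate 1, both at 64 h (-1.10, adjusted p = 6.63e-05) and at 16 h (-1.15, adjusted p = 0.000478). With 1 array left in Ctrl16h it was -1.12 without replicate 1 and -0.75 without replicate 2.

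With VPA Slc40a1 was at 9.53, 10.12 and 10.18 at 4 h and at 9.81, 9.84 and 9.94 at 64 h. VPA4h overlapped Ctrl4h, with replicate 1 the lowest in both, whereas VPA64h was above Ctrl64h in all arrays. The VPA effect was -0.02 at 4 h (adjusted p = 0.974) and 0.79 at 64 h (SE 0.18, 1.72-fold, adjusted p = 0.00494). The difference between the times was 0.80 (adjusted p = 0.0466), and adjusted p ranged from 0.00192 to 0.123 over the alternatives. From VPA4h to VPA64h Slc40a1 differed by -0.08 (adjusted p = 0.743), but by -0.55 (adjusted p = 0.011) when centred on housekeeping genes. Macrophages also make ferroportin. Of the 15 Kupffer cell and macrophage markers 2 had an adjusted p under 0.05 in VPA64h against Ctrl64h, both lower. Of all tested probe sets 24% did. The mean of the markers was 5.59 to 5.92 in VPA64h and 5.73 to 6.05 in Ctrl64h. The defining markers Clec4f and Adgre1 had group means of 5.24 to 5.68 and 4.93 to 5.37. Other markers of the list were brighter, with arrays from 6.84 to 9.73 for Lyz2, 6.94 to 8.82 for Ctss and 6.97 to 8.42 for Cd68. In VPA64h against Ctrl64h these differed by -0.43 for Lyz2 (adjusted p = 0.583), -0.73 for Ctss (adjusted p = 0.202) and 0.52 for Cd68 (adjusted p = 0.147). Their part in the Slc40a1 result was not tested.

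**Figure D3:**
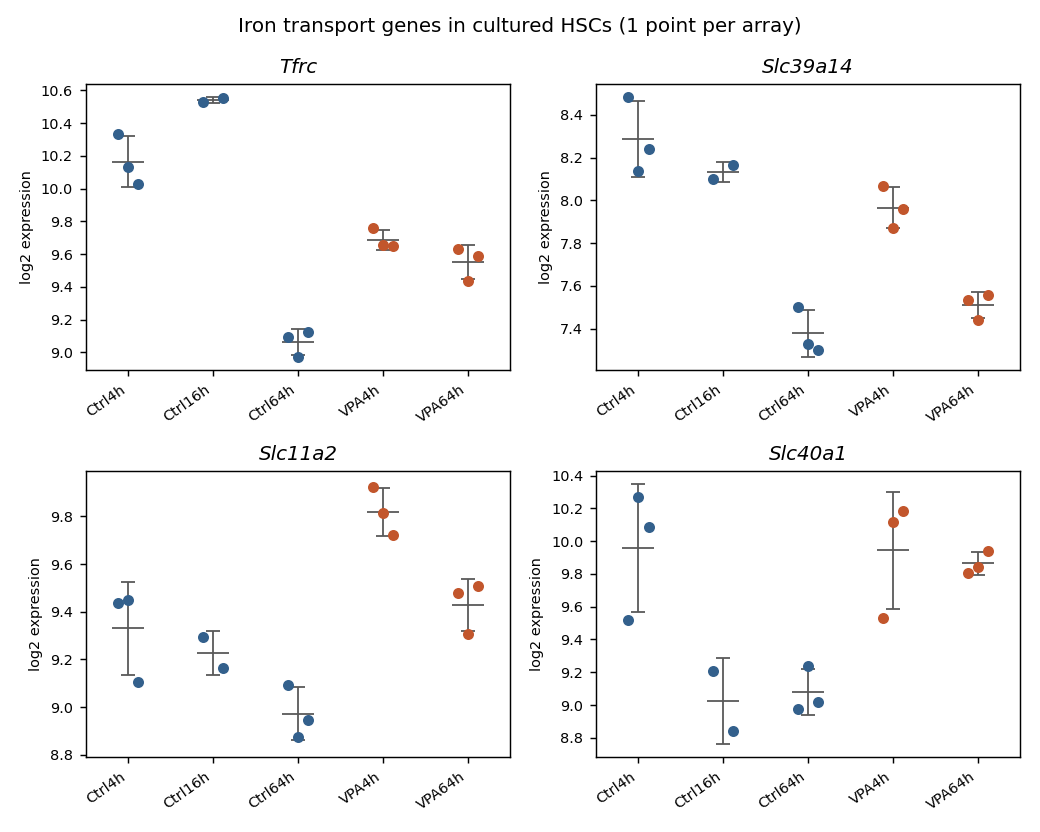
Log2 expression (y axis, scaled per gene) of Tfrc, Slc39a14, Slc11a2 and Slc40a1 in the 5 groups (x axis), control in blue and VPA in orange, with 1 point per array and bars for mean ± SD. Tfrc is below its control in VPA4h and above it in VPA64h, Slc11a2 is above its control at both times, and Slc40a1 is above its control in VPA64h.

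Counted over the 10 genes, each culture contrast moved more of them past the limits than VPA did. Over the whole array this held for the culture contrasts that end at 64 h. There 16 h against 4 h (1.91%) lay below VPA at 64 h (2.14%). Between 4 h and 16 h 2 rose (Steap1, Steap2) and 2 fell (Mt2, Steap4), where 1.91% of all tested probe sets were called, 0.705% higher and 1.21% lower. Between 16 h and 64 h 0 rose and 1 fell (Tfrc), where the background was 6.6%, with 4.52% higher and 2.08% lower. Between 4 h and 64 h 2 rose (Steap1, Steap2) and 4 fell (Mt1, Mt2, Steap4, Tfrc), where the background was 10.4%, with 6.68% higher and 3.71% lower. The median change of the 10 over this span was -0.89, against -0.09 over all tested probe sets. From VPA4h to VPA64h 2 rose (Steap1, Steap2) and 1 fell (Steap4), where the background was 7.55%, with 5.26% higher and 2.29% lower.

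Changes of any size with an adjusted p under 0.05 were common on the whole array in these contrasts, and the members' counts are read against that. They were reached by 6 of the 10 at 16 h against 4 h (3 higher, 3 lower, background 20.1%), by 6 at 64 h against 16 h (3 higher, 3 lower, background 43.1%), by 9 at 64 h against 4 h (2 higher, 7 lower, background 56.7%) and by 8 in VPA64h against VPA4h (2 higher, 6 lower, background 50.4%).

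For VPA against control, limma called 0 of the 10 at either time, where the background was 1.42% at 4 h (0.867% higher, 0.555% lower) and 2.14% at 64 h (1% higher, 1.14% lower). At an adjusted p under 0.05 of any size, 1 was higher (Slc11a2) and 3 were lower (Steap2, Tfrc, Slc39a14) at 4 h, where 5 had an unadjusted p under 0.05 and the background was 21.4%. At 64 h 5 were higher (Mt1, Mt2, Tfrc, Slc40a1, Slc11a2) and 0 lower, with a background of 24% and again 5 at an unadjusted p under 0.05. The analysis of variance of the methods was used with the same log2 changes and the same 2-fold limit. For VPA all changes of the 10 were under 2-fold at both times, so it could only call 0. For the difference between the VPA effects 1 was called (Mt2, background 2.59%, with 0.893% higher and 1.7% lower) and 4 passed the adjusted p at any size (Mt2, Tfrc, Slc39a14, Slc40a1, background 15.9%).

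**Figure D4:**
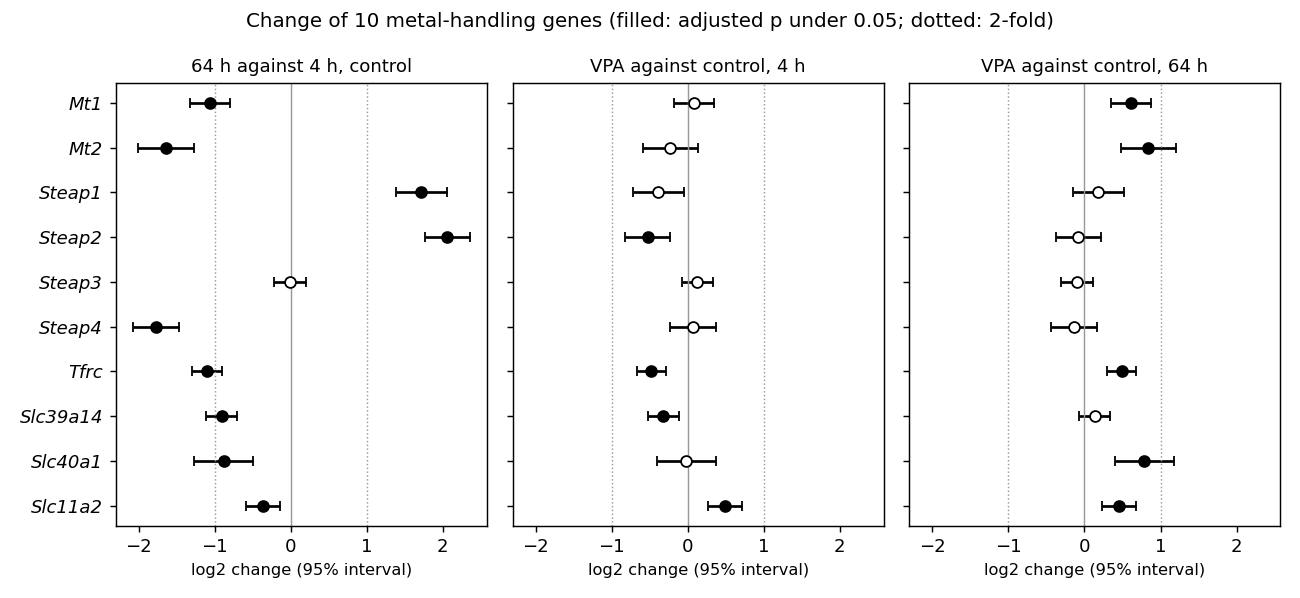
Log2 change (x axis) of the 10 genes (y axis) for 64 h against 4 h in control cells and for VPA against control at 4 h and at 64 h, with 95% intervals; filled points have an adjusted p under 0.05 and dotted lines mark 2-fold. Culture changes reach 2-fold for 6 genes, while all VPA changes stay inside the dotted lines.

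The scaling of the arrays bears on the culture contrasts. When each array was centred on 10 housekeeping genes, the median of all tested probe sets shifted by -0.40 for 16 h against 4 h, -0.41 for 64 h against 4 h and -0.47 for VPA64h against VPA4h. The split of called probe sets between 4 h and 64 h then went from 1564 higher and 868 lower to 674 higher and 2368 lower. Relative to those genes the rise of Steap1 at 16 h was 0.82, the 16 h difference of Tfrc was -0.02, and Slc40a1 at 16 h (-1.34) and Slc39a14 and Slc40a1 at 64 h (-1.32 and -1.29) passed 2-fold. The contrasts of VPA with control shifted by 0.06 or less.

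Among the other genes of iron transport, 15 measured in all, 0 rose and 3 fell between 4 h and 16 h: Trf (-1.21, adjusted p = 0.00232), the gene of transferrin; Cp (-1.10, adjusted p = 0.000511), the plasma ferroxidase ceruloplasmin; and Heph (-1.01, adjusted p = 0.000513), the membrane-bound ferroxidase hephaestin. Heph then rose by 2.15 from 16 h to 64 h (adjusted p = 1.16e-07), going from 5.83 and 5.85 in Ctrl16h to a range of 7.62 to 8.41 in Ctrl64h. From 4 h to 64 h Heph rose by 1.14 (adjusted p = 1.18e-05) and Cp fell by 1.06 (adjusted p = 5.97e-05). With VPA at 64 h only Lcn2 of this list was called, 2.83-fold lower (adjusted p = 0.00687), the gene of the siderophore-binding protein lipocalin 2. Lcn2 had a wide spread, 7.64 ± 0.89 in Ctrl64h and 6.14 ± 0.43 in VPA64h (SD, n = 3).

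Trf was at 8.55 ± 0.28 in Ctrl64h and 7.73 ± 0.57 in VPA64h (SD, n = 3), a VPA effect of -0.83 (adjusted p = 0.0123). Hepatocytes are the main source of transferrin in the liver. Of 15 hepatocyte markers 5 reached an adjusted p under 0.05 in Ctrl64h against Ctrl4h, all lower, where 56.7% of all tested probe sets did. In VPA64h against Ctrl64h 0 reached it in either direction, where 24% of all tested probe sets did. The mean of the markers was 5.33 to 5.91 in VPA64h and 5.44 to 5.99 in Ctrl64h. The part of hepatocytes in the changes of Trf and Cp was not tested.

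Iron storage genes showed few called changes in RNA, and protein was not measured. On the deposited scale Fth1 and Ftl1, the heavy and light chains of ferritin, had no change beyond 0.24 in any of the 7 contrasts. Fth1 differed between VPA64h and Ctrl64h by 0.04 (95% interval -0.11 to 0.19). Ftl1 was higher by 0.23 in Ctrl64h than in Ctrl4h (adjusted p = 0.0137) and by 0.24 in VPA64h than in VPA4h (adjusted p = 0.0144). Centring on housekeeping genes shifts every change in these 2 contrasts, by -0.41 and -0.47. Of the 17 genes of storage, iron regulatory proteins and hepcidin control, Bmp6 alone was called in any contrast. Bmp6, the endothelial signal that drives hepcidin in the liver, fell by 1.14 from 4 h to 64 h (adjusted p = 6.53e-05), from 7.45 ± 0.48 to 6.31 ± 0.04, and was 1.03 higher in VPA64h (7.34 ± 0.17, adjusted p = 0.000605) than in Ctrl64h. Its VPA effect at 64 h exceeded that at 4 h by 1.28 (adjusted p = 0.00276). Of 12 sinusoidal endothelial markers, 1 was higher and 7 were lower at an adjusted p under 0.05 in Ctrl64h against Ctrl4h. In VPA64h against Ctrl64h 1 was higher and 5 were lower. Of all tested probe sets 56.7% and 24% passed in these contrasts. The marker means were 6.45 to 6.72 in Ctrl64h and 6.28 to 6.30 in VPA64h. The part of endothelial cells in the Bmp6 values was not tested.

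Between 4 h and 64 h the haem genes held the largest changes among the lists. Of 20 measured, 3 rose and 1 fell, where 6.68% of all tested probe sets were called higher and 3.71% lower. Cpox, an enzyme of haem synthesis, rose by 1.85 (adjusted p = 2.02e-10), Blvra, the biliverdin reductase, rose by 1.81 (adjusted p = 1.08e-09), and Urod, another enzyme of haem synthesis, rose by 1.12 (adjusted p = 8.45e-07). Hmox1, the inducible haem oxygenase that releases iron from haem, fell by 2.11 (SE 0.18, adjusted p = 9.71e-08), from 12.59 ± 0.12 in Ctrl4h to 10.48 ± 0.28 in Ctrl64h. In VPA64h it was at 11.33 ± 0.46, higher than Ctrl64h by 0.85 (1.80-fold, adjusted p = 0.00307), and the VPA effects at 64 h and 4 h differed by 1.05 (adjusted p = 0.011). This is the same direction of change and of VPA effect as for Mt1 and Mt2.

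Iron-sulfur cluster genes had a median change of 0.53 between 4 h and 64 h, with 2 of 15 rising (6.68% of all tested probe sets), Nfu1 by 1.32 (adjusted p = 6.56e-05) and Bola3 by 1.08 (adjusted p = 6.41e-07), both late-acting factors of the mitochondrial pathway. Nubp1, a scaffold of the cytosolic pathway, fell with VPA at 4 h by 1.34 (adjusted p = 4.96e-08), from 8.32 ± 0.10 to 6.98 ± 0.12 (SD, n = 3). At 64 h it was also lower with VPA, at 7.46 ± 0.03 against 8.34 ± 0.04 in Ctrl64h, but was not called. Of 13 copper genes 2 rose from 4 h to 64 h (against the same 6.68%), the chaperones Atox1 by 1.39 (adjusted p = 1.17e-08) and Cox17 by 1.14 (adjusted p = 2.29e-06). Sod3, the extracellular copper and zinc superoxide dismutase, fell by 1.84 from 4 h to 16 h (adjusted p = 1.38e-07) and rose by 1.57 from 16 h to 64 h (adjusted p = 1.32e-07). Heph also fell and then rose. Steap4 fell and was then higher by 0.94, a later step that was not called. Urod was named after its value was seen, as were Cp and Heph at 16 h.

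The list counts depend on the scaling. Centred on the housekeeping genes, the numbers that rose and fell between 4 h and 64 h were 0 and 3 in iron transport, 0 and 2 in storage and hepcidin control, 2 and 3 in haem, 0 and 1 in iron-sulfur clusters, 0 and 3 in zinc and 0 and 0 in copper. Of all 23410 tested probe sets 674 rose and 2368 fell on that scale. Cpox and Blvra were still called higher and Cp, Bmp6 and Hmox1 lower on it. Heph, Nfu1, Bola3, Urod, Atox1 and Cox17 were not called. In VPA64h against Ctrl64h the called genes of the 6 lists, Lcn2 and Bmp6, were called on that scale too. With the arrays quantile normalised again Bmp6 was higher in VPA64h by 0.92 (adjusted p = 0.00145), under the 2-fold limit. The numbers that rose and fell between 4 h and 64 h were then 1 and 2 in iron transport, 0 and 1 in storage, 2 and 1 in haem, 1 and 1 in iron-sulfur clusters, 0 and 0 in zinc and 1 and 0 in copper. Of all tested probe sets 1363 rose and 968 fell.

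**Figure D5:**
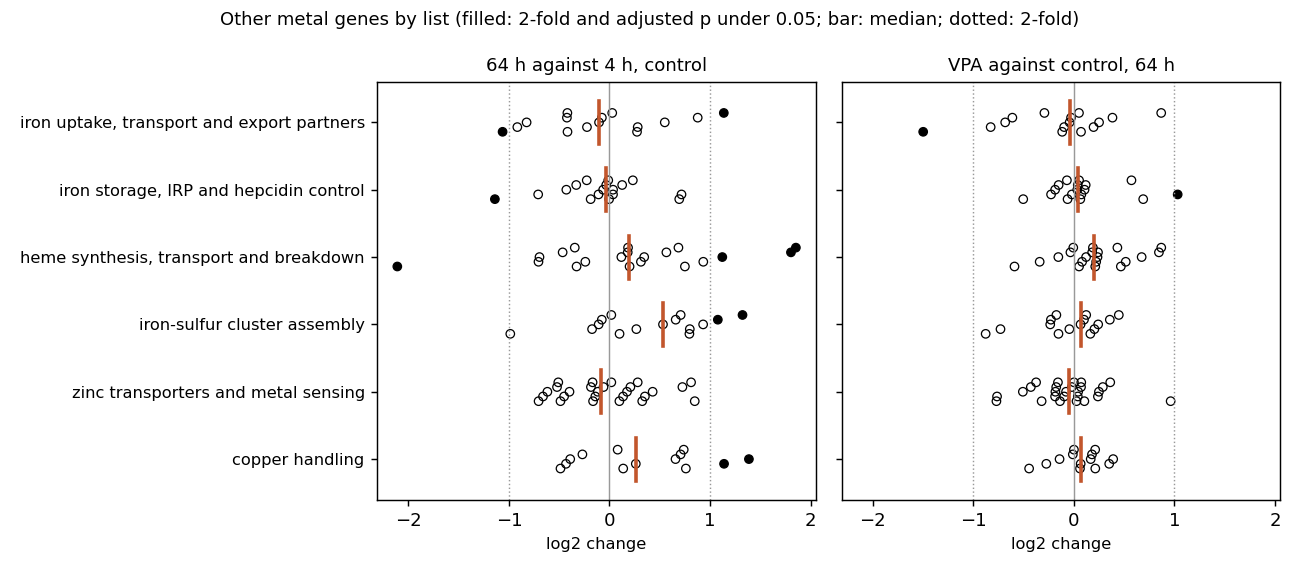
Log2 change (x axis) of each measured gene in 6 lists of metal-handling genes (rows) for 64 h against 4 h in control cells and for VPA against control at 64 h, with 1 circle per gene; filled circles are called, orange bars are list medians and dotted lines mark 2-fold. Between 4 h and 64 h 8 genes are called higher and 3 lower, while with VPA at 64 h only Lcn2 and Bmp6 are called.

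Outside the 10 genes, those whose values over the 14 arrays came closest to a member, each centred on its own mean, were ranked by root mean square difference for the 6 members that ranged over at least 1 log2 unit. For Mt1 they were Znrf3 (0.118), Zfp142 (0.144) and Layn (0.154), and for Mt2 Ngfr (0.261), Crispld2 (0.269) and Acsl4 (0.269). Ngfr is itself an HSC marker. Steap1 was closest to Copg2 (0.163), Oma1 (0.202) and Exoc4 (0.241), and Steap2 to Exoc4 (0.223), Oma1 (0.235) and Vgll3 (0.241), so that Oma1 and Exoc4 stood on both lists. Steap1 and Steap2 themselves differed by 0.220, which is closer than any of these for Steap2. For Steap4 Mamdc2 (0.147) was much closer than Abcg1 (0.341) and Abcc9 (0.370). Tfrc was closest to Elmo1 (0.158), Spire1 (0.173) and Aox1 (0.183).

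Promoter windows were at hand for 7 of the 10 genes, in 13 windows, and Slc39a14, Slc40a1 and Slc11a2 have none in the table used. Besides the metallothioneins, the metal response element core was found in windows of Steap1 (1 match), Steap2 (1 match in 1 of 3 windows) and Tfrc (2 overlapping matches on opposite strands in 1 of 2 windows). The antioxidant response element, read as TGACNNNGC, had 1 match in Mt2 and 1 in Steap2, against 12.4% of all windows with at least 1. The windows of Steap3 and Steap4 held no match to either motif.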

How the data were processed

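RNA of 14 HSC cultures was hybridised to Affymetrix Mouse Gene 1.0 ST arrays. The deposited table holds log2 values that the authors made by RMA (background correction, quantile normalisation and probe summarisation). Per the labels this was done in Affymetrix Expression Console, whereas the methods name GeneSpring GX. RMA pulls arrays to one distribution, so changes are relative to the bulk of transcripts. Of 35557 probe sets, 23410 with a gene symbol were tested: 21789 with 1 symbol, from which genes were named, and 1621 with several. The other 12147 have none. Symbols come from the platform annotation.

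Groups were compared by limma 3.58.1 (lmFit, eBayes, R 4.3.3) in 1 fit of 5 groups with 7 contrasts, 9 residual and 6.52 prior degrees of freedom, two-sided, with Benjamini-Hochberg adjustment over the tested probe sets of each contrast. No replicate block was used. The fit was tested on simulated data. The methods call the arrays of a group independent biological replicates. Same-numbered arrays of control and VPA deviated together within a time point (correlations 0.139 to 0.279 at 4 h and 0.158 to 0.171 at 64 h). Of the 14 arrays 10 deviated most like a same-numbered array among those of other groups. The labels give repeat numbers but state no pairing. Across times the correlations ran from -0.238 to 0.233, with the 3 pairs of Ctrl4h and VPA64h all over 0.1 and those of no other pair of groups. In each of the 4 groups with 3 arrays replicate 1 had the highest mean of the Kupffer cell markers and replicate 2 that of the hepatocyte markers.

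The members and gene lists were chosen with earlier results of these data known. All 10 members are named. From each list the text names up to 3 called genes of largest change over the whole control culture and, likewise, for VPA at 64 h, and 1 for each other contrast, besides Trf, Fth1, Ftl1, Hmox1, Mtf1 and Slc30a1. Listed genes without a probe set of their own are not analysed here. Promoters are RefSeq windows on GRCm38.p6. Arrays give no counts, so their number limits the precision.

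Alternatives were other eBayes settings, array weights, a filter on dim probe sets, all probe sets, 2 other scalings, only the groups compared, the F test of the methods, the mean of a gene's probe sets, a 1.5-fold limit, a replicate block and leaving out each array.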

Additional observations from a re-analysis of the deposited data

Results flagged for a closer look

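The VPA effect at 64 h differed from that at 4 h, by the interaction term of limma, for 4 of the 10 members. It also did for genes of the lists, of which 3 are given here. Other listed genes passed the limit too. Of the 20 measured haem genes 6 were higher and 4 lower, and of the 13 copper genes 0 were higher and 2 lower. The difference of the log2 effects was 1.07 for Mt2 (adjusted p = 0.00634), 0.97 for Tfrc (adjusted p = 9.98e-05), 0.80 for Slc40a1 (adjusted p = 0.0466) and 0.45 for Slc39a14 (adjusted p = 0.0342). For Tfrc all VPA arrays were below control at 4 h and above it at 64 h. Among the listed genes it was 1.28 for Bmp6 (adjusted p = 0.00276), 1.05 for Hmox1 (adjusted p = 0.011) and -0.49 for Slc30a1 (adjusted p = 0.00755). Of all tested probe sets 15.9% had such a difference at an adjusted p under 0.05. Causes were not tested.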

How the results depend on the processing

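Each change of a member was recomputed under up to 24 alternatives. Of these values 1543 kept direction and side of the adjusted p limit, 59 lost it, 17 gained it and 21 had the opposite sign. Opposite signs came from the housekeeping scaling (Steap3 -0.20 and Tfrc -0.022 at 16 h against 4 h, Slc40a1 0.047 for VPA at 4 h), from repeated quantile normalisation (Slc40a1 -0.055 at 64 h against 16 h and 0.021 for VPA at 4 h), from the mean of the Steap2 probe sets (0.025 for VPA at 64 h) and from leaving out 1 array. With 1 array left out Steap3 ranged from -0.067 to 0.044 at 64 h against 4 h, Steap4 from -0.0082 to 0.15 for VPA at 4 h and from -0.29 to 0.014 at 64 h, and the Slc11a2 difference of VPA effects from -0.089 to 0.083. Slc40a1 ranged from -0.13 to 0.24 at 64 h against 16 h, from -0.23 to 0.19 for VPA at 4 h and from -0.28 to 0.040 for VPA64h against VPA4h.

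The count of called members went from 3 to 5 for VPA64h against VPA4h with the housekeeping scaling (2 higher, 3 lower, with Mt1 at -1.01 and Mt2 at -1.04), and with a 1.5-fold limit to 4 at 64 h against 16 h, 3 for VPA at 64 h and 3 for the difference of VPA effects. Members past the adjusted p for that difference went from 4 to 2 with all probe sets tested and to 2 with the housekeeping scaling. Leaving out 1 array gave 1 to 2 called members at 64 h against 16 h, 0 to 2 for the difference of VPA effects, 2 to 4 members past the adjusted p for VPA at 4 h (2 without Ctrl4h replicate 1) and 2 to 5 for the difference of effects. With the replicate block, Mt1 (difference of effects, 0.0293) and Mt2 (-0.38 at 64 h against 16 h, 0.0219) passed the adjusted p, and no other result changed its call. A block within each time point, chosen after seeing the data, left 0, 0 and 1 called for VPA at 4 h, at 64 h and their difference. This block leaves the size of the VPA changes as it was, so the counts of 0 could not change. The F test gives no p for one contrast and was used for calls only. The cause of these shifts was not tested.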
